A study of Mus musculus with 4 samples.

Results

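A group of 10 genes that make, move or break down the galactolipids of myelin was followed in brain RNA of Bcas1 knockout and wild-type mice: Ugt8a, Gal3st1, Fa2h, Elovl1, Cers2, Sptlc2, Degs1, Gltp, Galc and Arsa. They were chosen by name, with earlier results of these data known. Every probe set that the array's annotation assigned to 1 of the 10 genes was kept. This gave 19 probe sets of the 45037 tested, and 0 further probe sets named a member together with another gene. The study used 4 male C57BL/6 mice aged 8 to 9 weeks, 1 array per mouse: 2 wild-type mice (+/+) and 2 BCAS1 KO mice (-/-). Animals of both genotypes came from matings of Bcas1 heterozygotes. The labels name the tissue as brain and, in the descriptions, as cerebrum. Neither the disrupted part of Bcas1 nor the way the allele was made is given in the sources used here. Levels are log2 values from RMA, which brings the arrays to a common distribution and gives 1 value per probe set, so a difference of 1 is a doubling. Probe sets whose mean is under the median of all probe sets are called dim, and 15 of the 19 were above it. SE is the standard error from limma, and differences are knockout minus wild type throughout.

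Myelin is the lipid-rich membrane that oligodendrocytes wrap around axons, and it is unusually rich in galactosylceramide and in its sulfated form, sulfatide. Both are built on ceramide: serine palmitoyltransferase starts the sphingoid base, a ceramide synthase attaches a long fatty acid, and a desaturase completes the ceramide. In oligodendrocytes much of that fatty acid is very long and is hydroxylated before use. The sugar is then added by ceramide galactosyltransferase and the sulfate by a sulfotransferase, and in lysosomes the 2 steps are undone in reverse order by arylsulfatase A and galactosylceramidase. Loss of the last pair of enzymes causes the human leukodystrophies metachromatic leukodystrophy and Krabbe disease. Bcas1 itself encodes a protein of myelinating oligodendrocytes.

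Promoter sequence was available in the RefSeq window table (GRCm38.p6) for 9 of the 10 genes, in 13 windows of 300 bases that run from 250 bases before a transcript start to 50 after it. Fa2h was the gene without a window. Of these, 4 are printed, 5′ to 3′ on the gene's strand, because they show how unlike the starts of these genes are. The window of Ugt8a, the galactosyltransferase gene, held 0 of the motifs searched, as did the Galc window and an Elovl1 window, neither printed. The windows printed for Cers2, Degs1 and Arsa were the members' windows with CACGTG. Capitals mark any match to a motif searched, on either strand.
Ugt8a, chr3:125938603-125938902, minus strand: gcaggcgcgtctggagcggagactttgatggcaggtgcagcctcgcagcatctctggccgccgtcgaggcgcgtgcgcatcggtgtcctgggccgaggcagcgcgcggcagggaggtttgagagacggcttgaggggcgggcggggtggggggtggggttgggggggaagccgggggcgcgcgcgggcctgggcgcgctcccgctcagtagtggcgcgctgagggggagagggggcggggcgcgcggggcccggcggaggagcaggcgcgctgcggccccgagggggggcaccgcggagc
Cers2, chr3:95314940-95315239, plus strand: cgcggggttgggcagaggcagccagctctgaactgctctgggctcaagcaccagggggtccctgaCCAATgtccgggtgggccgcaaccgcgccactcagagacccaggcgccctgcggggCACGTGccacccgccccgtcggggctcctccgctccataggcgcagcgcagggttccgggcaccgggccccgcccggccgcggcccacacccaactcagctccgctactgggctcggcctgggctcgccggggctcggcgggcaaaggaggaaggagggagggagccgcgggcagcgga
Degs1, chr1:182282146-182282445, minus strand: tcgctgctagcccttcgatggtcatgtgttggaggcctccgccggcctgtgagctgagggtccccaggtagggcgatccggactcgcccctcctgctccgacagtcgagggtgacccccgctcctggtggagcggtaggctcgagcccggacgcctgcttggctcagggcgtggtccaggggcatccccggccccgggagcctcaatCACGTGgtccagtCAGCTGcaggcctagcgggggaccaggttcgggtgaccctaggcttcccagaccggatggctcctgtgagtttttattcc
Arsa, chr15:89477375-89477674, minus strand: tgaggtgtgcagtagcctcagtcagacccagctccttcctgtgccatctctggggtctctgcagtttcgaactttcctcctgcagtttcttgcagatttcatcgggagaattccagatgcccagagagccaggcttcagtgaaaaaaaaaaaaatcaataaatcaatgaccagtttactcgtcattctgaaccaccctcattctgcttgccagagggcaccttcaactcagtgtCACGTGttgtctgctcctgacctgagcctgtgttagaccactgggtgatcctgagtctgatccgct
SOX factors such as the oligodendrocyte regulator Sox10 can bind the motif ACAAAG, and also the motif ACAATG. The motif CAGCTG is an E-box of the kind bound by basic helix-loop-helix factors. A further E-box, CACGTG, is the core of the element known from lysosomal genes. CCAAT is a general promoter motif. None of these motifs overlapped in the member windows. CACGTG stood in 3 of the 13 member windows, 129 bases before the start in Cers2, 43 before it in Degs1 and 16 before it in Arsa, against 7.15% of all 32851 windows. Of the 2 lysosomal genes, Arsa held it and Galc did not. ACAAAG was in 0 member windows (18.7% of all), and ACAATG was in 2 overlapping windows of Gal3st1 (12.6% of all). CAGCTG was in 2 windows, that of Degs1 and a Cers2 window not printed (16.3% of all), and CCAAT in 7 windows of 5 genes (37.4% of all). The GC content ranged from 49.7% for Arsa to 79.0% for Gltp, with a median of 67.0% over member windows and 52.7% over all windows. Windows of 1 gene can overlap, so these counts are descriptions, and a match is not a binding site.

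The 4 arrays had medians of 6.49 to 6.51. Bcas1 was checked first, and its brightest probe set was at 12.17 and 12.21 in the wild-type arrays, against 11.05 and 10.75 in the knockout arrays, a lower but present signal. That difference of -1.29 (SE 0.12) had an adjusted p of 0.742 in limma, so the disrupted gene itself did not pass the threshold of 0.05. Its 2 dim probe sets differed the other way, by 0.77 and 0.64, and where the 3 lie relative to the disruption is not known here. Of 15 oligodendrocyte markers 11 were measured, all above the array's median level, so RNA of the cells that make these lipids was present in each array. Of 9 nasal mucosa genes 7 were measured, and their mean was high in the second knockout array alone, at 7.15 against 4.73 to 4.95. They did not rise alike: Obp1a stood at 8.92 there, against 3.41 to 4.15 in the other arrays. Reg3g, at 4.62 against 4.18 to 4.32, and Omp, at 6.56 against 6.17 to 6.42, differed little. Of 5 Schwann cell markers 3 were measured, and they averaged 6.95 to 7.13 in all 4 arrays. The parts of these admixtures in the member values were not tested. In bulk tissue, fewer cells of a type and less RNA per cell cannot be told apart.

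No member of the pathway passed the test for a difference between genotypes, a threshold that Bcas1 did not pass either, so the count does not show that the members were unchanged. Of the 19 probe sets 0 passed an adjusted p of 0.05 in limma (Benjamini-Hochberg over all probe sets), against 0.00444% of all probe sets, and every member had an adjusted p of 1. At an unadjusted p under 0.05 the count was also 0 of 19, against 3.42% of all probe sets. By the brightest probe set of each gene, 0 of 10 passed either limit, against 0.0055% and 2.75% of all genes. With the brightest probe set standing for each gene, the 10 differences ran from -0.0050 (Sptlc2) to 0.15 (Gltp). Their 95% intervals reached at most 0.33 upward, a 1.25-fold higher level (Gltp), and at most -0.19 downward, a 1.14-fold lower level (Sptlc2). Differences beyond those bounds lie outside these intervals, which rest on 2 mice per genotype and on a variance shared across the array. The bounds do not cover the other probe sets. Of those above the median level, Ugt8a 1419064_a_at reached furthest down, to -0.36, and none passed the upward bound.

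**Figure D1:**
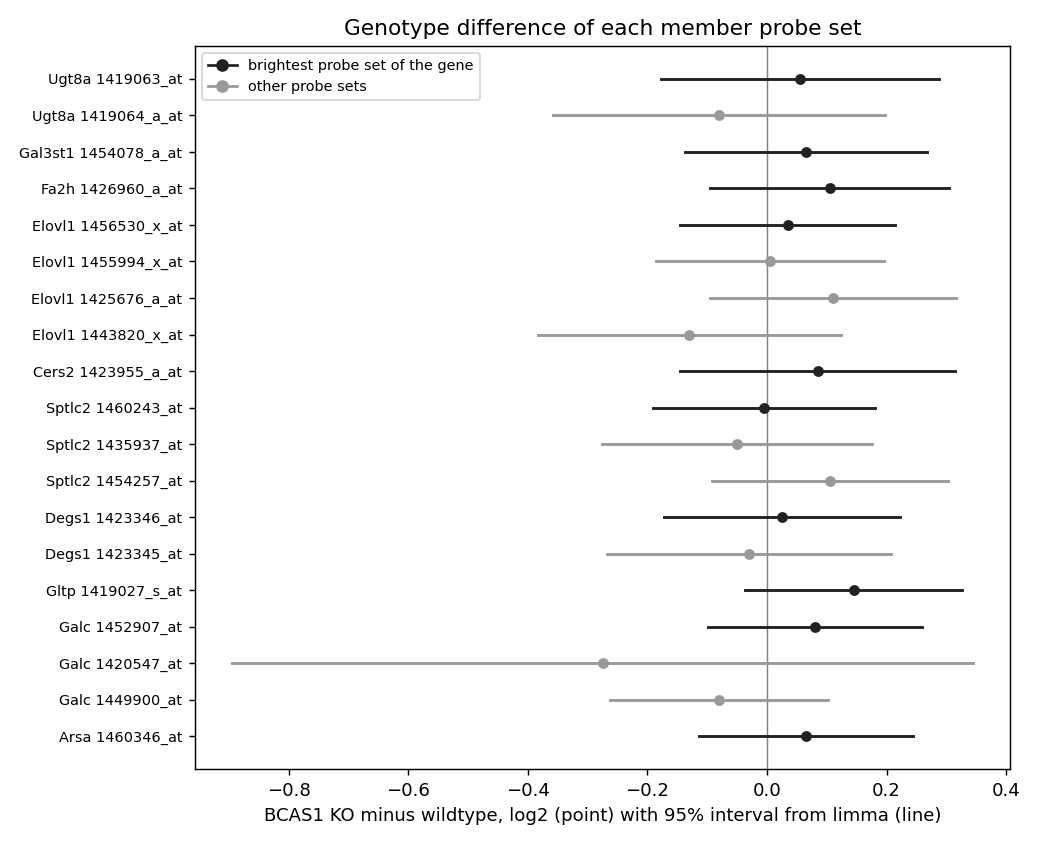
Knockout minus wild-type difference on the log2 scale (horizontal axis) for each of the 19 probe sets, with its 95% interval from limma; black marks the brightest probe set of a gene and grey the others. Every interval spans 0, and the widest belongs to the dim Galc probe set 1420547_at, from -0.90 to 0.35.

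The galactolipid enzymes were measured in both genotypes at nearly the same level. Ugt8a, the ceramide galactosyltransferase that commits ceramide to galactosylceramide, stood at 11.48 and 11.55 in the wild-type arrays, against 11.65 and 11.49 with Bcas1 disrupted at its brightest probe set, 1419063_at. The first knockout array was the highest and the second lay between the wild types, so the genotypes overlapped. The difference was 0.055 (SE 0.089), and without the first knockout array it was -0.025. The second Ugt8a probe set, 1419064_a_at, stood at 7.70 and 7.95 in the wild-type arrays, against 7.74 and 7.75 with Bcas1 disrupted, a difference of -0.080 (SE 0.11). Here the spread lay within wild type, and without the second wild-type array the sign turned to 0.045. The pair of Ugt8a probe sets thus differed in direction, each within its spread.

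Gal3st1 encodes the sulfotransferase that turns galactosylceramide into sulfatide. It stood at 7.89 and 7.94 in the wild-type arrays, against 7.93 and 8.03 with Bcas1 disrupted. The value of the first knockout mouse fell inside the wild-type range, and the difference was 0.065 (SE 0.077), with a 95% interval from -0.14 to 0.27.

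The genes of the fatty acid chain had positive differences at each probe set above the median level, all within their intervals' reach of 0. Fa2h, the hydroxylase that makes the 2-hydroxy fatty acids typical of myelin galactolipids, stood at 9.29 and 9.36 in the wild-type arrays, against 9.39 and 9.47 with Bcas1 disrupted. Both knockout arrays were above both wild-type arrays, but the gap of 0.03 between the genotypes was smaller than the gap of 0.07 between the wild types. The difference was 0.11 (SE 0.077).

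Elovl1, the elongase for very-long-chain saturated acids, had 4 probe sets. The brightest, 1456530_x_at, stood at 8.69 and 8.70 in the wild-type arrays, against 8.74 and 8.72 with Bcas1 disrupted, a difference of 0.035 (SE 0.069). Its neighbour in brightness, 1455994_x_at, measured 8.64 and 8.71 against 8.70 and 8.66, a difference of 0.0050. The pair has the suffix _x_at, which marks probe sets with probes that may also match other transcripts. Probe set 1425676_a_at measured 7.96 and 8.01 against 8.15 and 8.04, a difference of 0.11 (SE 0.079), most of it in the first knockout array. The dim 1443820_x_at measured 4.12 and 4.33 against 4.08 and 4.11, a difference of -0.13 (SE 0.097). The 4 probe sets of Elovl1 therefore did not share a direction, and the interval of each spanned 0.

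Among the ceramide genes, Cers2 had 1 array that stood out. Cers2, the ceramide synthase for very long acyl chains, measured 9.39 in both wild-type mice and in the second knockout mouse, and 9.56 in the first knockout mouse. Its difference of 0.085 (SE 0.088) came from that array alone and was 0 without it. Degs1, the desaturase that completes ceramide, stood at 11.20 and 11.16 in the wild-type arrays, against 11.25 and 11.16 with Bcas1 disrupted at 1423346_at, a difference of 0.025 (SE 0.075). At 1423345_at it measured 10.46 and 10.50 against 10.36 and 10.54, a difference of -0.030 (SE 0.091). The first knockout array was the highest at the former and the lowest at the latter, so the 2 Degs1 probe sets disagreed on which array was high.

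Sptlc2, a subunit of serine palmitoyltransferase at the entry to the pathway, had the smallest difference of the 10 genes. Its brightest probe set, 1460243_at, stood at 8.18 and 8.12 in the wild-type arrays, against 8.14 and 8.15 with Bcas1 disrupted, with both knockout values between the wild types and a difference of -0.0050 (SE 0.071). Probe set 1435937_at measured 7.89 and 8.03 against 7.87 and 7.95, a difference of -0.050 (SE 0.086). The dim 1454257_at measured 5.92 and 6.01 against 6.09 and 6.05, a difference of 0.11 (SE 0.075) with no overlap.

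Gltp, which binds and transfers glycolipids with galactosylceramide among its ligands, had the largest difference of the 10 genes. It stood at 9.71 and 9.73 in the wild-type arrays, against 9.88 and 9.85 with Bcas1 disrupted, so the genotypes were 0.12 apart at their nearest and no more than 0.03 apart within. The means were 9.72 ± 0.014 and 9.87 ± 0.021 (SD, n = 2 each), and the difference was 0.15 (SE 0.069), a 1.11-fold higher level. Its 95% interval ran from -0.036 to 0.33, and its adjusted p in limma was 1. Gltp was read by a single probe set, 1419027_s_at, whose suffix marks probes shared by several transcripts.

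The lysosomal pair was tight within each genotype. Galc, the galactosylceramidase, measured 8.90 in both wild-type mice and 8.98 in both knockout mice at its brightest probe set, 1452907_at, a difference of 0.080 (SE 0.068). The deposited values have 2 decimals, so an SD of 0 means agreement to that rounding, and the SE comes from the variance shared over the array. Arsa, the arylsulfatase that removes the sulfate of sulfatide, was at 9.42 in each wild-type mouse and reached 9.49 and 9.48 in the knockouts, a difference of 0.065 (SE 0.068). Both genes were thus higher in both knockout arrays, by 1.06-fold and 1.05-fold, and neither passed the test. The 2 dim Galc probe sets pointed the other way. Probe set 1420547_at measured 4.66 and 5.24 against 4.87 and 4.48, a difference of -0.28 (SE 0.24), and 1449900_at measured 3.24 in both wild-type mice against 3.18 and 3.14, a difference of -0.080 (SE 0.070).

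**Figure D2:**
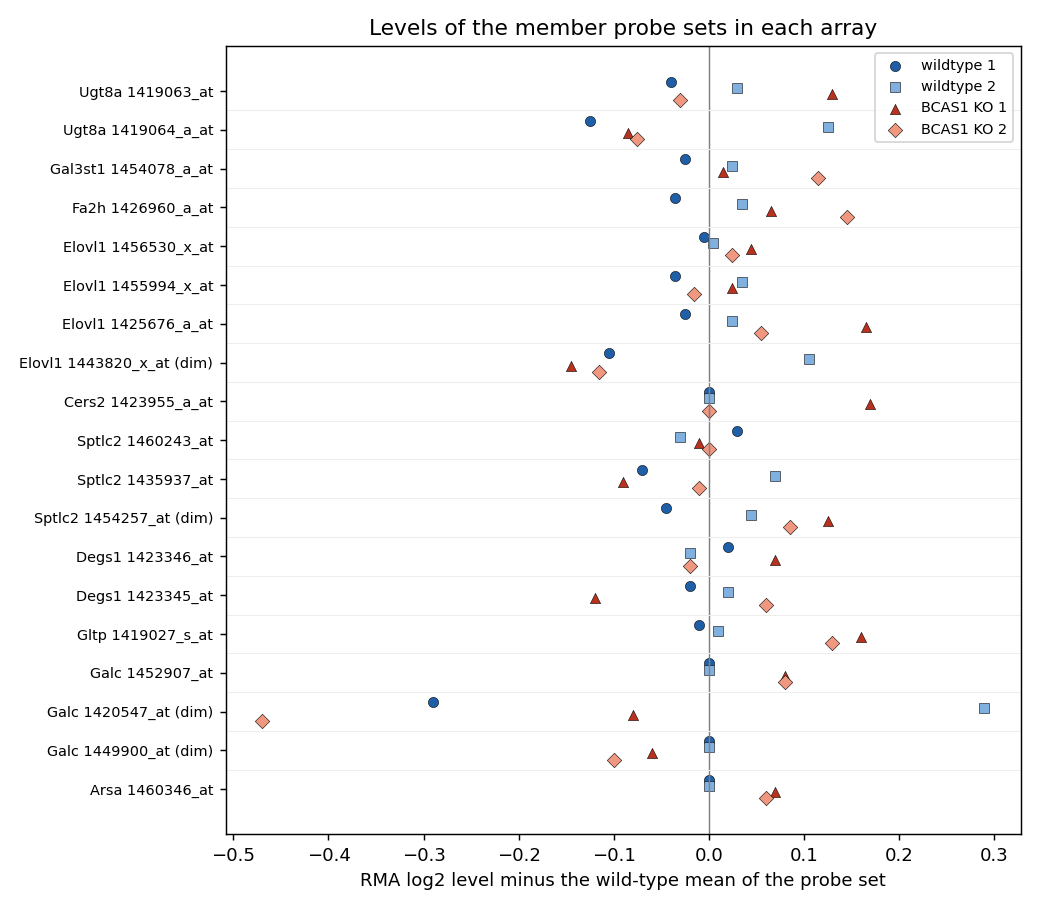
RMA log2 level of each probe set in each array minus the wild-type mean of that probe set (horizontal axis); circles and squares are the 2 wild-type mice, triangles and diamonds the 2 knockout mice, and "dim" marks a mean level below the array's median. Galc 1452907_at, Arsa and Gltp keep the genotypes apart with little spread within them, while Cers2 departs in the first knockout array alone.

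As a group the brightest probe sets of the member genes had slightly higher values in the knockout arrays. Their mean deviation from each gene's 4-array mean was -0.039 and -0.027 in the wild types, against 0.047 and 0.018 in the knockouts. These group values rest on 2 mice per genotype, and their separation was not tested. The difference was positive for 9 of 10 genes with a median of 0.065, against 51.7% positive and a median of 0.0050 over all 18193 genes. Both knockout arrays were above both wild-type arrays for 5 of 10 (Fa2h, Elovl1, Gltp, Galc and Arsa), against 15.5% of all genes, and below for 0, against 12.8%. Counted over all 19 probe sets, 7 were apart upward (13.9% of all probe sets) and 2 downward (13.2%), with a median of 0.035. The choice of probe set therefore matters: with the mean of all probe sets of a gene in place of the brightest, the median over genes was 0.041. It was 0.042 without the first knockout array, where the median over the 19 probe sets was 0, and 0.070 without the second.

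The first knockout array held the larger part of that shift, and oligodendrocyte markers were high in the same array. It was the highest array, without a tie, for 6 of the 10 member genes and for 6 of the 11 oligodendrocyte markers, against 19.0% of all genes. The 8 synthesis and transfer genes deviated from their 4-array means on average by -0.039 and -0.024 in the wild types, against 0.049 and 0.014 in the knockouts. The oligodendrocyte markers deviated by -0.049 and -0.019 in the wild types, against 0.091 and -0.024 in the knockouts, with mean levels of 10.89, 10.92, 11.03 and 10.91 in the same order. Mbp, a major structural protein of compact myelin, stood at 14.49 and 14.47 in the wild-type arrays, against 14.49 and 14.36 with Bcas1 disrupted. All genes together deviated opposite to the oligodendrocyte markers in the knockout, by -0.022 in the first array and 0.032 in the second. Against the synthesis and transfer genes, this held only in the first knockout array. Astrocyte markers were also highest there, with mean levels over 6 genes of 11.28 and 11.29 in the wild types, against 11.40 and 11.29 in the knockouts. They did not move as 1: Gfap, the astrocyte filament gene, stood at 8.64 and 8.77 in the wild types, against 9.01 and 8.97 in the knockouts, 0.29 higher (SE 0.081; limma's adjusted p was 1), and Aldh1l1 was lowest in the first knockout array at 9.81. The other marker classes varied without that array standing above the rest. Precursor markers averaged 9.11 to 9.17, microglial markers 8.35 to 8.43, neuronal markers 12.03 to 12.09, endothelial markers 8.19 to 8.30 and choroid plexus markers 8.99 to 9.16. The part of oligodendrocyte or astrocyte content in the member values was not tested. The members did not share 1 pattern: Gal3st1 and Fa2h were highest in the second knockout array and Sptlc2 in the first wild-type array. Galc and Arsa were nearly equal in the knockout arrays, with mean deviations of -0.036 in each wild-type array and 0.039 and 0.034 in the knockout arrays.

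**Figure D3:**
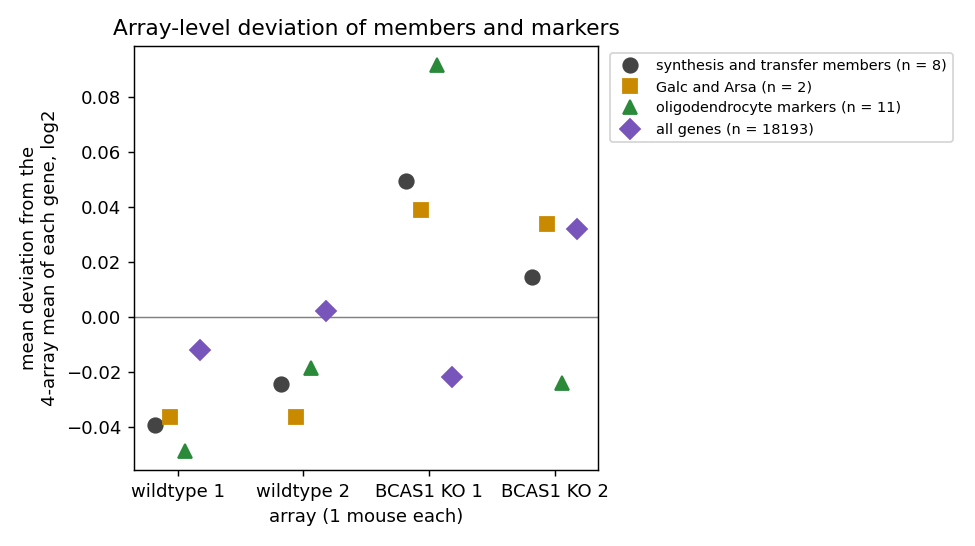
Mean deviation from each gene's 4-array mean on the log2 scale (vertical axis) in each of the 4 arrays, for the 8 synthesis and transfer genes, for Galc with Arsa, for 11 oligodendrocyte markers and for all 18193 genes. The first knockout array is the highest for the synthesis genes and the oligodendrocyte markers, while Galc with Arsa stand at 0.039 and 0.034 in the knockout arrays.

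When each array was scaled to its oligodendrocyte markers, the median over the 10 member genes was close to 0. This scaling takes the same 0.067 off every gene's difference, which is how far the markers themselves differed. The median was then -0.0023, with 4 positive and 6 negative. The scaled differences ran from -0.072 (Sptlc2) to 0.078 (Gltp), with an adjusted p in limma of 0.990 for each. Ugt8a was at -0.012, Gal3st1 at -0.0023, Galc at 0.013 and Arsa at -0.0023. These values set the members against oligodendrocyte markers in the same array and do not say which of them moved. Which cells of the tissue the member RNA came from was not tested.

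The rest of the sphingolipid network was read from a wider set of genes. Of 79 measured genes in 5 lists of sphingolipid and fatty acid metabolism, members left out, 0 passed the adjusted test in limma and 1 had an unadjusted p under 0.05. In these lists 42 differences were positive and 32 negative, with a median of 0.0050, equal to that of all genes.

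In ceramide and sphingomyelin synthesis, 17 of 20 listed genes were measured, 6 positive and 9 negative, with a median of -0.0050. Cers3, a ceramide synthase for ultra-long chains of skin and testis, was the gene with the low unadjusted p. It stood at 3.16 and 3.13 in the wild-type arrays, against 3.45 and 3.48 with Bcas1 disrupted, a difference of 0.32 (SE 0.070) near the bottom of the scale. Sgms1, a sphingomyelin synthase that uses the same ceramide, differed by 0.10 (SE 0.085) and Cerk, the ceramide kinase, by -0.090 (SE 0.084). Zdhhc9, a protein palmitoyltransferase that was on the list but does not make ceramide itself, differed by -0.10 (SE 0.091).

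In glucosylceramide and ganglioside synthesis, the branch that neurons favour over galactolipids, all 13 listed genes were measured, 8 positive and 5 negative, with a median of 0.0050. St3gal1 differed by 0.13 (SE 0.14) and St8sia5 by -0.070 (SE 0.097), both sialyltransferases, and B3galt4 and B4galt5, both galactosyltransferases, by 0.035 and -0.035. The genotypes overlapped for every gene of this list.

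The other genes listed under lysosomal sphingolipid breakdown, not all of them lysosomal enzymes, were centred near 0. Of 12 measured, 9 were positive and 2 negative, with a median of 0.020, and 0 passed the test. Neu1, the lysosomal sialidase, stood at 8.29 and 8.27 in the wild-type arrays, against 8.47 and 8.41 with Bcas1 disrupted, a difference of 0.16 (SE 0.071) and the 1 gene of the 12 with no overlap upward, against 15.5% of all genes. Neu3 differed by 0.10 (SE 0.11), Sumf1, which activates sulfatases such as Arsa, by 0.075 (SE 0.11), and Asah1, the acid ceramidase, by 0.035 (SE 0.074). Sumf1 was high in the first knockout array, at 8.62 against 8.43 and 8.38 in wild type, and lowest in the second, at 8.34.

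Among 16 genes of non-lysosomal ceramide and sphingosine 1-phosphate turnover, 8 were positive and 7 negative, with a median of 0.0050. Sgpp2, a sphingosine 1-phosphate phosphatase, stood at 9.59 and 9.69 in the wild-type arrays, against 9.47 and 9.52 with Bcas1 disrupted, a difference of -0.15 (SE 0.077). S1pr5, the sphingosine 1-phosphate receptor of oligodendrocytes, measured 7.80 and 7.67 against 8.01 and 7.77, a difference of 0.16 (SE 0.11), and its highest value was again in the first knockout array. Sgpp1 differed by 0.14 (SE 0.18) and Smpd2 by 0.070 (SE 0.099).

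In very-long-chain fatty acid supply, 21 of 24 listed genes were measured, 11 positive and 9 negative, with a median of 0.0050. Fasn, the fatty acid synthase, stood at 10.87 and 10.77 in the wild-type arrays, against 10.68 and 10.74 with Bcas1 disrupted, a difference of -0.11 (SE 0.078). Hacd2, a dehydratase of the elongation cycle in which Elovl1 works, measured 9.81 and 9.95 against 9.98 and 10.01, a difference of 0.12 (SE 0.083). Elovl3, at a dim level, and Acacb, an acetyl-CoA carboxylase, each differed by -0.15 (SE 0.072 and 0.12).

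Myelin protein genes had a median difference of 0.060 over 11 measured genes, 9 positive and 2 negative. That is close to the 0.065 of the lipid genes, and the difference between the lists was not tested. Most of the myelin protein genes are also among the oligodendrocyte markers above, so this list is not independent of them. Mal, a proteolipid that associates with galactolipids, differed by 0.13 (SE 0.080), Omg by 0.10 (SE 0.077), Cnp by 0.095 (SE 0.073) and Ermn by 0.16 (SE 0.14). Of these genes 0 passed in limma, with an adjusted p of 1 for each.

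The genes whose profile over the 4 arrays was most like that of Ugt8a were Zc3h6, Zfp959 and Scfd1. Likeness was the root mean square distance between profiles, each with its own mean removed, among 4878 genes above the median level that ranged over the arrays at least as widely as Ugt8a. The distances were 0.0043, 0.0071 and 0.0071, and Cers2 ranked 80, Gltp 627 and Fa2h 1132 by the same measure. The other members ranged less than Ugt8a over the arrays, so they were not ranked. Ugt8a itself ranged by only 0.17, and many genes match so short and flat a profile closely.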

How the data were processed

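Total RNA was labelled with a 3' in vitro transcription kit from 100 ng per mouse and hybridised to 1-colour Affymetrix arrays, per the labels' protocols. The deposited values are log2 levels, 1 per probe set and array. The authors' method was RMA, according to the submitters' processing notes, with software and settings not given in the sources used here. RMA equalises the arrays, so a shift common to most genes would not be seen. The table has 45101 rows, of which 64 control probe sets were left out. Genes were named from the platform annotation: 34945 probe sets had 1 gene symbol, 932 several and 9160 none here. A level under the array's median of about 6.49 is called dim, and no detection calls were used. The number of arrays limits the precision.

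Genotypes were compared by lmFit and eBayes of limma 3.58.1 in R 4.3.3, two-sided, adjusted by Benjamini-Hochberg over 45037 probe sets. The fit had 2 residual and 2.74 prior degrees of freedom and was tested on simulated data. A permutation test of 2 against 2 cannot go below 0.333 two-sided. The labels call each array a mouse, so SDs describe 2 mice. Members, gene lists, markers and alternatives were chosen with earlier results of these data known. All member probe sets are reported; of each list the 4 genes with the smallest p are named, and list genes stand by their brightest probe set. The 3 genes nearest Ugt8a are those of the rule; the ranks of members beside them, and genes named for array patterns, were added after their values were seen. The alternatives were median-centring, a second quantile normalization, leaving out dim probe sets, robust variances with an intensity trend, the mouse number as a block, leaving out each array, scaling to oligodendrocyte markers, gene means and leaving out _s_at and _x_at probe sets.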

Additional observations from a re-analysis of the deposited data

How the results depend on the processing

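In each alternative run, 0 member probe sets and 0 of the lipid list genes passed the threshold in limma, and the lowest adjusted p of a member was 0.573, without the first knockout array. The count over all probe sets was 2 as reported, 1 with the filter on dim probe sets and 10 with the intensity trend and robust variance. After scaling to oligodendrocyte markers it was 13. That fit had 12.33 prior degrees of freedom against 2.74 in the main fit, so the shared variance weighed more in it. With the replicate block the count was 0. It was 0 to 0 on leaving out 1 array. The mouse numbers in the titles were not taken as pairs, since the labels state no shared litter or day and only 2 pairs exist; wild-type and knockout differences between mice 1 and 2 correlated at 0.241 over probe sets. With 1 mouse of each genotype per number, the block cannot change a difference, only its error. The median over the 10 genes ranged from 0.042 to 0.083 and that over the 19 probe sets from 0 to 0.045 on leaving out 1 array. The former was 0.041 with the mean of all probe sets of a gene. After scaling to oligodendrocyte markers the medians were -0.0023 and -0.032.

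Some member differences changed sign, none of them past the threshold. Median-centring and the scaling to markers each move every gene alike, so a sign changes there where the difference was smaller than that shift. Sptlc2 (1460243_at) turned to 0.0050 with median-centring and 0.0038 with repeated quantile normalization. Scaling to oligodendrocyte markers turned Ugt8a (1419063_at) to -0.012, Gal3st1 and Arsa to -0.0023, Degs1 (1423346_at) to -0.042, and Elovl1 to -0.032 (1456530_x_at) and -0.062 (1455994_x_at). On leaving out 1 array the ranges were -0.030 to 0.040 for Elovl1 1455994_x_at, -0.035 to 0.025 for Sptlc2 1460243_at, -0.025 to 0.14 for Ugt8a 1419063_at, -0.020 to 0.070 for Degs1 1423346_at, -0.12 to 0.060 for Degs1 1423345_at, -0.20 to 0.045 for Ugt8a 1419064_a_at, -0.12 to 0.020 for Sptlc2 1435937_at and -0.56 to 0.015 for Galc 1420547_at.
The precision is that of 2 mice per genotype, and dim probe sets, where differences are compressed, could not be told from background.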
